A study of Mus musculus with 4 samples.

Results

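The genes described here are 10 members of the Notch pathway, chosen by symbol from 52636 gene identifiers counted in sorted mouse kidney cells. They are the receptors Notch1 and Notch2, the ligands Jag1 and Dll1, the glycosyltransferase Lfng, and the target genes Hes1, Hes5, Hey1, Heyl and Nrarp. Each symbol matched 1 identifier in the files. A Notch receptor sits in the membrane of one cell and is bound by a Jagged or Delta ligand on its neighbour. Binding lets proteases release the intracellular part of the receptor, which joins the DNA-binding protein RBPJ in the nucleus and switches on Hes and Hey genes. In the developing mouse kidney the pathway acts as nephron progenitors form epithelium and take on podocyte and proximal tubule fates, and Notch2 is the receptor on which those fates mainly depend.

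RNA was sequenced from kidney cells isolated on a fluorescence-activated cell sorter, in a group labelled control and a group labelled Brg1-cKO, with 2 libraries each and 3000 cells per library. By usual usage Brg1-cKO means a conditional knockout of Brg1, the protein of Smarca4 and an ATPase of the SWI/SNF complexes that move nucleosomes. The sources used here do not give the deleting allele, the sorting marker, the strain or the age of the mice. Nor is it stated that the replicates are separate mice, so a p-value reflects the scatter of these libraries alone, and that scatter may be technical.

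Counts on genes came to 35411905 and 37999342 in the controls and to 14645665 and 10922272 in the Brg1-cKO libraries. Of the uniquely aligned reads, 15.4% to 16.5% lay outside counted genes in the controls and 49.5% to 57.2% in Brg1-cKO. The biological coefficient of variation over 18172 tested genes came to 0.174 for the control pair and 1.15 for the Brg1-cKO pair. Smarca4 was at 898 and 937 CPM (counts scaled to the library size after TMM normalization) in the controls and at 760 and 691 CPM in Brg1-cKO, and the counts include exons that a deletion may leave. Six2, which marks nephron progenitors, was detected in every library, at 242 and 237 CPM in the controls and at 234 and 126 CPM in Brg1-cKO. The Y-linked Ddx3y was at 76.0 and 78.8 CPM in the controls and at 1.05 and 3.27 CPM in Brg1-cKO. Xist, the RNA of the inactive X, was at 244 and 217 CPM in the controls and at 836 and 1205 CPM in Brg1-cKO, so both genes were detected in every library. Sex and genotype cannot be told apart in what follows.

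Jag1, Notch2, Heyl and Lfng stood above the controls in each Brg1-cKO library, with model folds over all 4 libraries of 1.31 to 1.54. Dll1 and Nrarp were lower in both, with model folds of 0.795 and 0.265. For Hes1, Hey1 and Notch1 the 2 Brg1-cKO libraries lay on opposite sides of the controls. Fewer cells of a type and less RNA per cell cannot be told apart for any of these genes. Hes5 was barely detected in either group and was the member that did not pass the filter on low counts. No member passed the adjusted threshold of 0.05 (edgeR, quasi-likelihood), which 0% of all genes passed. At an unadjusted p under 0.05 there were 3 members, namely Jag1, Notch2 and Heyl, all higher, where 5.44% of all genes were higher at that level and 12.9% lower. Of the 9 members tested, 4 lay above both controls in both Brg1-cKO libraries and 2 below, against 17.5% and 34.5% of all tested genes. Among genes at 10 CPM or more in control, as all tested members but Nrarp were, the shares were 20.8% and 29.3%. The median log2 fold change of the 9 tested members was 0.37, and the median over all tested genes was -0.06.

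**Figure D1:**
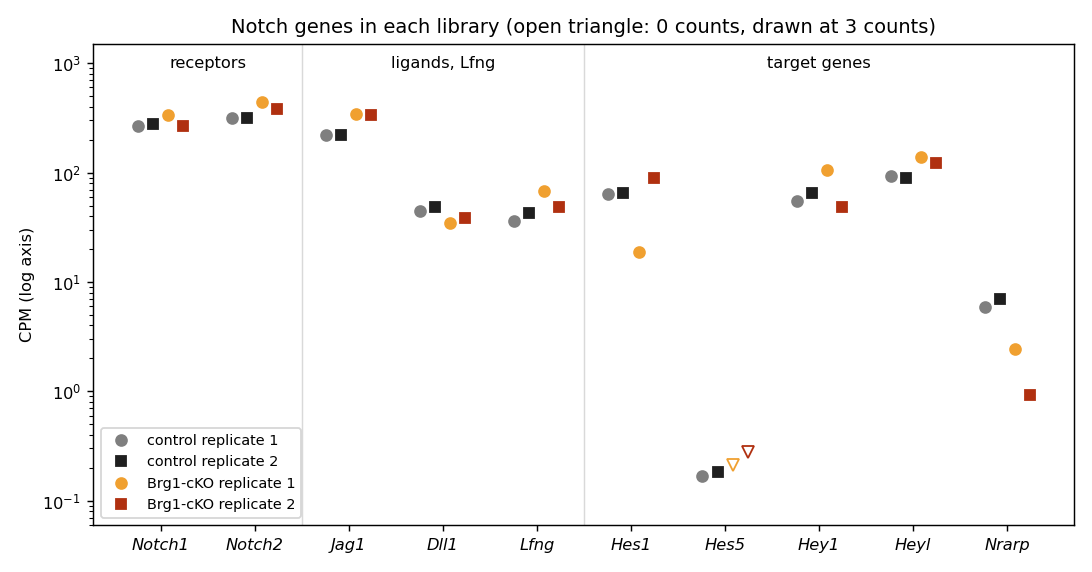
CPM (log axis) of the 10 Notch genes in each of the 4 libraries, with 0 counts drawn as open triangles at the level of 3 counts. The 2 Brg1-cKO libraries sit close together above the controls for Jag1, from 335.8 to 345 CPM, and far apart for Hes1, at 18.8 and 88.6 CPM.

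Among the receptors, Notch2 was at 316 and 314 CPM in the controls and at 439 and 383.7 CPM in Brg1-cKO. Both Brg1-cKO values lay above both controls, which were close to each other. This made a log2 fold change of 0.38 (SE 0.12, 95% interval 0.06 to 0.71, adjusted p = 0.207 by edgeR). Notch1 was at 265 and 279.6 CPM in the controls and at 339 and 264 CPM in Brg1-cKO. Brg1-cKO replicate 1 lay above the controls and replicate 2 just below them, so the groups overlapped. Its log2 fold change was 0.15 (SE 0.17, 95% interval -0.32 to 0.61, adjusted p = 0.744 by edgeR).

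Jag1, the Jagged ligand of the forming nephron, was at 222 and 221 CPM in the controls and at 345 and 335.8 CPM in Brg1-cKO. The Brg1-cKO libraries were 1.03 times apart and both stood clear of the controls. The log2 fold change was 0.62 (SE 0.11, 95% interval 0.33 to 0.91, adjusted p = 0.166 by edgeR). No other member had a smaller p in that model. An exact permutation test of 2 against 2 libraries cannot go below 0.333. DESeq2, which calls 10.7% of the genes it tested, gave adjusted p = 1.28e-07 for Jag1, 0.0258 for Notch2 and 0.0338 for Heyl, and edgeR's likelihood ratio test, which calls 13.6%, gave adjusted p = 0.0423 for Jag1 alone of the members. With limma-voom, which calls 1.8%, 0 members passed.

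Dll1, the Delta ligand expressed in the same early nephron structures, stood lower. It was at 44.4 and 48.3 CPM in the controls and at 34.9 and 38.8 CPM in Brg1-cKO. The groups did not overlap, and the nearest libraries were Brg1-cKO replicate 2 and control replicate 1. Dll1 had a log2 fold change of -0.33 (SE 0.27, 95% interval -1.07 to 0.41, adjusted p = 0.632 by edgeR).

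Lfng adds N-acetylglucosamine to sugars on the receptor and so changes which ligands it answers to. It was at 36.2 and 42.4 CPM in the controls and at 67.9 and 48.1 CPM in Brg1-cKO. Both Brg1-cKO values were above both controls, and replicate 1 was 1.41 times replicate 2. Lfng had a log2 fold change of 0.56 (SE 0.31, 95% interval -0.29 to 1.41, adjusted p = 0.465 by edgeR), and it was 0.26 without Brg1-cKO replicate 1.

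Hes1 encodes the transcriptional repressor that is a standard readout of Notch activity. It was at 63.8 and 65.1 CPM in the controls and at 18.8 and 88.6 CPM in Brg1-cKO. Replicate 1 was thus far below the controls and replicate 2 above them. The Brg1-cKO libraries were 4.71 times apart, the widest gap among the members tested. Of 4723 genes within 2 times of the control level of Hes1, 3.75% had Brg1-cKO libraries at least as far apart, and the median gene had a ratio of 1.55. Since Hes1 is the extreme of the members in this ratio, that share is a description and not a test. The log2 fold change over all 4 libraries was -0.27 (SE 0.79, 95% interval -2.48 to 1.95, adjusted p = 0.914 by edgeR). It was 0.43 without Brg1-cKO replicate 1 (adjusted p = 0.00244 by edgeR) and -1.80 without replicate 2 (adjusted p = 2.38e-08 by edgeR), so the direction depended on the library. A lone library is taken to vary like the controls, and 55.5% of all genes are then called without replicate 1 and 60.6% without replicate 2.

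Hey1, a repressor of the Hes-related family, showed the reverse arrangement. It was at 55.2 and 65.0 CPM in the controls and at 106.6 and 48.9 CPM in Brg1-cKO. The library with the low Hes1 value was the one with the high Hey1 value. Hey1 had a log2 fold change of 0.37 (SE 0.45, 95% interval -0.89 to 1.64, adjusted p = 0.761 by edgeR), and the value was -0.33 without Brg1-cKO replicate 1 and 0.81 without replicate 2.

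Heyl, the third gene of the Hey family, was at 93.9 and 89.6 CPM in the controls and at 139 and 122 CPM in Brg1-cKO. Both Brg1-cKO libraries lay above both controls and differed from each other by 1.14 times. The log2 fold change was 0.51 (SE 0.18, 95% interval 0.03 to 0.997, adjusted p = 0.252 by edgeR). Among Hes1, Hes5, Hey1, Heyl and Nrarp, Heyl was the only one above control in both Brg1-cKO libraries.

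Nrarp encodes a small ankyrin protein that is induced by Notch and limits it. It was at 5.87 and 6.92 CPM in the controls, from 210 and 267 counts, and at 2.45 and 0.934 CPM in Brg1-cKO, from 35 and 10 counts. Both Brg1-cKO libraries were below both controls. The log2 fold change of -1.91 was the largest in size among the members tested (SE 1.20, 95% interval -5.23 to 1.397, adjusted p = 0.530 by edgeR), and its interval includes 0. It was -2.80 without Brg1-cKO replicate 1 and -1.41 without replicate 2. Hes5, a repressor related to Hes1, had 6 and 7 counts in the controls, which is 0.168 and 0.182 CPM, and 0 in both Brg1-cKO libraries. Set against 3 counts over the Brg1-cKO group, the control level was at least 1.46-fold higher, so little difference was detectable at this depth.

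**Figure D2:**
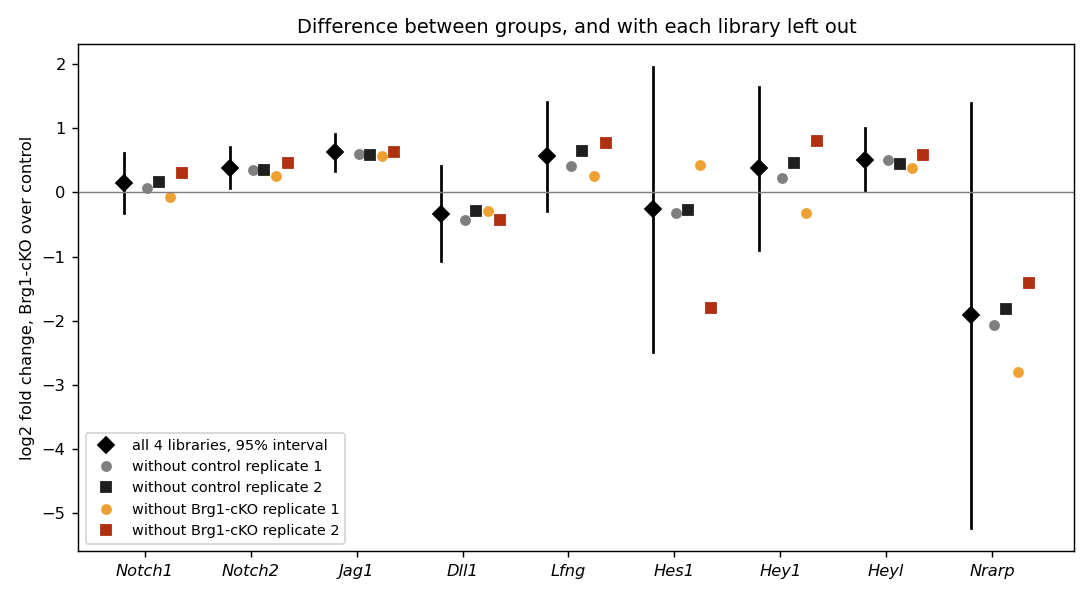
Log2 fold change of Brg1-cKO over control for the 9 tested Notch genes, as diamonds with 95% intervals for all 4 libraries and as coloured points with 1 library left out. Jag1 stays between 0.57 and 0.62 with any 1 library left out, while Hes1 runs from -1.80 to 0.43.

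Levels of different genes were compared as CPM per kilobase of exon. In the controls the order was Jag1 at 37.9 to 38.1, Hes1 at 31.3 to 31.95 and Notch2 at 29.1 to 29.3 CPM per kilobase, with no overlap between neighbours. Notch1, Hey1 and Heyl followed between 16.9 and 19.9, and their ranges over the 2 libraries overlapped. Lfng at 14.5 to 16.9, Dll1 at 10.5 to 11.4, Nrarp at 2.27 to 2.68 and Hes5 at 0.123 to 0.133 CPM per kilobase completed it. In Brg1-cKO, Jag1 was again first, at 57.6 to 59.3 CPM per kilobase, and Notch2 second by mean at 35.6 to 40.7. From Notch2 down to Notch1 each neighbour in the Brg1-cKO order overlapped the next. Hes1 had the widest range of these, from 9.23 to 43.5, followed by Hey1 from 15.0 to 32.7 CPM per kilobase.

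On mm10, Notch1 lies on chromosome 2 from 26457903 to 26516663 and Jag1 on the same chromosome from 137081456 to 137116644, as does Nrarp from 25180758 to 25183339. Notch2 lies on chromosome 3 from 98013527 to 98150361 and Hey1 on it from 8663359 to 8667256. Dll1 lies on chromosome 17 from 15367354 to 15376872, Lfng on chromosome 5 from 140607320 to 140615545 and Hes1 on chromosome 16 from 30064384 to 30067796. Hes5 and Heyl are on chromosome 4, from 154960923 to 154962371 and from 123233556 to 123249875. All 10 are protein-coding in GENCODE release M21. The exons of Nrarp share 2051 of 2582 bases with the antisense gene Gm38287, which had 0 counts in every library. If strand was ignored in the counting, reads from those bases may have gone to neither gene. Notch1, Dll1 and Hes5 overlap antisense genes over 1482, 867 and 433 bases, and Notch2 overlaps the predicted gene Gm42820 on its own strand over 541 bases.

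Promoter windows, from 250 bases before to 50 after the start of transcription, were given by RefSeq on GRCm38.p6 for 7 of the 10 members. They are shown for Lfng, Hes5 and Nrarp, which are regulated by Notch in several mouse tissues, and for Jag1, the member with the smallest p. Capitals mark TGGGAA, the core bound by RBPJ, and the sites CACGTG and CACGNG of the kind that Hes and Hey proteins bind, on either strand. Every CACGTG is also a CACGNG. The windows are chr5:140607091-140607390 on the plus strand for Lfng, chr4:154960673-154960972 on the plus strand for Hes5, chr2:25180508-25180807 on the plus strand for Nrarp and chr2:137116471-137116770 on the minus strand for Jag1.
Lfng: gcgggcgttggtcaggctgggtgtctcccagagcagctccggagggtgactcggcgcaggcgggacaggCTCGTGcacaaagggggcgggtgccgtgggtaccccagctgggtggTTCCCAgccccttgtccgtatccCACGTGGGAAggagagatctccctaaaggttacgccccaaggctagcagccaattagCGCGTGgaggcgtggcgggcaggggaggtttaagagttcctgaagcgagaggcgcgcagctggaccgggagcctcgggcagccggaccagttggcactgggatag
Hes5: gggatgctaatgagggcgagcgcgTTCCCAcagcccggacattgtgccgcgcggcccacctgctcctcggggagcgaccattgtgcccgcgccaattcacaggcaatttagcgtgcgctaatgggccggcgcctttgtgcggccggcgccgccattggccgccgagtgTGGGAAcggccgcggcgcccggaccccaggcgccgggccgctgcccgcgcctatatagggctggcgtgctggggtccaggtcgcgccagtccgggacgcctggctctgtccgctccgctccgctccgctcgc
Nrarp: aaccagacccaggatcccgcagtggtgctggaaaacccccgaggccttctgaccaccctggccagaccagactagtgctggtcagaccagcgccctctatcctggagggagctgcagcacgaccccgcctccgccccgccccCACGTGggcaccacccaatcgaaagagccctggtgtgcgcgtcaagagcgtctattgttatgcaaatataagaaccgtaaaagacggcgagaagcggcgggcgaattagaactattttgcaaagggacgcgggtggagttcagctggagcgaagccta
Jag1: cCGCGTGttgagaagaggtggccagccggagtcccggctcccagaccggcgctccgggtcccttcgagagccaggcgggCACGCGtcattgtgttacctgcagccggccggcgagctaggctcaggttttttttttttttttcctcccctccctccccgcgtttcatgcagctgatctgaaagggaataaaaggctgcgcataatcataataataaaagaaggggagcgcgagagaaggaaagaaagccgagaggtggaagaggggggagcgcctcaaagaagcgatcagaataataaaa

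TGGGAA was found at 2 places in the Lfng window and at 2 in the Hes5 window, and at none in those of Notch1, Notch2, Jag1, Dll1 and Nrarp. Of all 32851 promoter windows 25.6% held it at least once and 3.79% at 2 or more places. In Hes5 the matches began 226 and 82 bases before the start and faced opposite ways. In Lfng they began 135 and 108 bases before it, and the second overlapped a CACGTG that began 112 bases before it. Nrarp held CACGTG 108 bases before the start, a site found in 7.15% of all windows. CACGNG was also found in the windows of Notch2, Jag1 and Dll1, against 27.5% of all. Lfng and Hes5, the windows with TGGGAA, differed in level, with 48.1 to 67.9 CPM in Brg1-cKO for Lfng and 0 counts for Hes5. A match says only that these letters are present, and binding was not measured.

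The other genes of the pathway were taken from a list of 69, of which 64 passed the filter on low counts. Of these, 0 passed the adjusted threshold in edgeR's quasi-likelihood test, against 1 by limma-voom, 5 by the edgeR likelihood ratio test and 6 by DESeq2. The shares of all genes passing were 0%, 1.8%, 13.6% and 10.7%, in the same order. At an unadjusted p under 0.05 there were 11, with 4 higher and 7 lower, where 5.44% of all genes were higher and 12.9% lower. Both Brg1-cKO libraries lay above both controls for 15 and below for 22 of the 64, beside 17.5% and 34.5% of all genes. The median log2 fold change was -0.11, against -0.06 over all genes.

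Among the other receptors and ligands, Notch3, Notch4 and Dll4 stood lower in both Brg1-cKO libraries. Notch3, the receptor of pericytes and vascular smooth muscle, was at 180 and 192 CPM in the controls and at 130.3 and 89.4 CPM in Brg1-cKO. Its log2 fold change was -0.76 (SE 0.24, adjusted p = 0.225 by edgeR), whereas that of Notch2 was 0.38. Notch4, an endothelial receptor, was at 36.2 and 42.4 CPM in the controls and at 7.48 and 1.59 CPM in Brg1-cKO, a log2 fold change of -3.11 (SE 0.91, adjusted p = 0.200 by edgeR). Dll4, the Delta ligand of endothelium, was at 7.46 and 8.79 CPM in the controls and at 0.419 and 0 CPM in Brg1-cKO (adjusted p = 0.318 by edgeR). Jag2 was at 17.1 and 15.999 CPM in the controls and at 34.0 and 1.21 CPM in Brg1-cKO, so its groups overlapped.

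Lfng's relatives were below control where Lfng was above it. Mfng was at 13.0 and 9.59 CPM in the controls and had no counts at all in Brg1-cKO, at least 94.3-fold lower against 3 counts over the group (adjusted p = 0.166 by edgeR). Rfng was at 39.7 and 35.8 CPM in the controls and at 26.6 and 7.66 CPM in Brg1-cKO, a log2 fold change of -1.14 (SE 0.71, adjusted p = 0.530 by edgeR), or -2.33 without replicate 1 and -0.53 without replicate 2. Whether the 3 Fringe genes differed from each other was not tested. Among the 8 genes that modify ligands or receptors, 2 lay above both controls and 4 below, beside 17.5% and 34.5% of all genes.

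Parts of the gamma-secretase that releases the receptor's intracellular domain were not all on one side of control. Ncstn, which encodes nicastrin, was at 98.7 and 100.6 CPM in the controls and at 164.5 and 180.8 CPM in Brg1-cKO, a log2 fold change of 0.79 (SE 0.15, adjusted p = 0.166 by edgeR). Aph1a was at 15.9 and 19.1 CPM in the controls and at 36.8 and 63.5 CPM in Brg1-cKO, a log2 fold change of 1.52 (SE 0.42, adjusted p = 0.180 by edgeR). Psenen, named after its values were seen, was at 5.34 CPM in each control and at 1.12 and 0 CPM in Brg1-cKO.

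In the nucleus, Rbpj, the factor through which the pathway acts, was at 62.1 and 61.1 CPM in the controls and at 61.8 and 45.3 CPM in Brg1-cKO. Replicate 1 lay between the controls, and the log2 fold change was -0.20 (SE 0.27, 95% interval -0.94 to 0.54, adjusted p = 0.783 by edgeR). Maml1, a coactivator that joins RBPJ and the receptor, was at 119.5 and 118 CPM in the controls and at 60.3 and 80.2 CPM in Brg1-cKO, a log2 fold change of -0.76 (SE 0.23, adjusted p = 0.201 by edgeR). Of 16 nuclear partners tested, 3 lay above both controls and 6 below. Of the 9 genes listed here as negative regulators, which include Dtx4 and other Deltex genes, 2 lay above and 2 below. Whether each of them limits signalling was not tested. Over all genes these shares were 17.5% and 34.5%. Fbxw7, which marks the intracellular domain for degradation, was at 45.8 and 66.4 CPM in Brg1-cKO compared with 37.3 and 33.0 CPM (adjusted p = 0.393 by edgeR), and Dtx4 at 17.3 and 5.51 CPM against 25.3 and 25.0 CPM (adjusted p = 0.542 by edgeR). Hey2, the remaining Hey gene, was at 3.63 and 5.23 CPM in Brg1-cKO and at 9.75 and 8.09 CPM in control, below it in both libraries (adjusted p = 0.672 by edgeR).

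**Figure D3:**
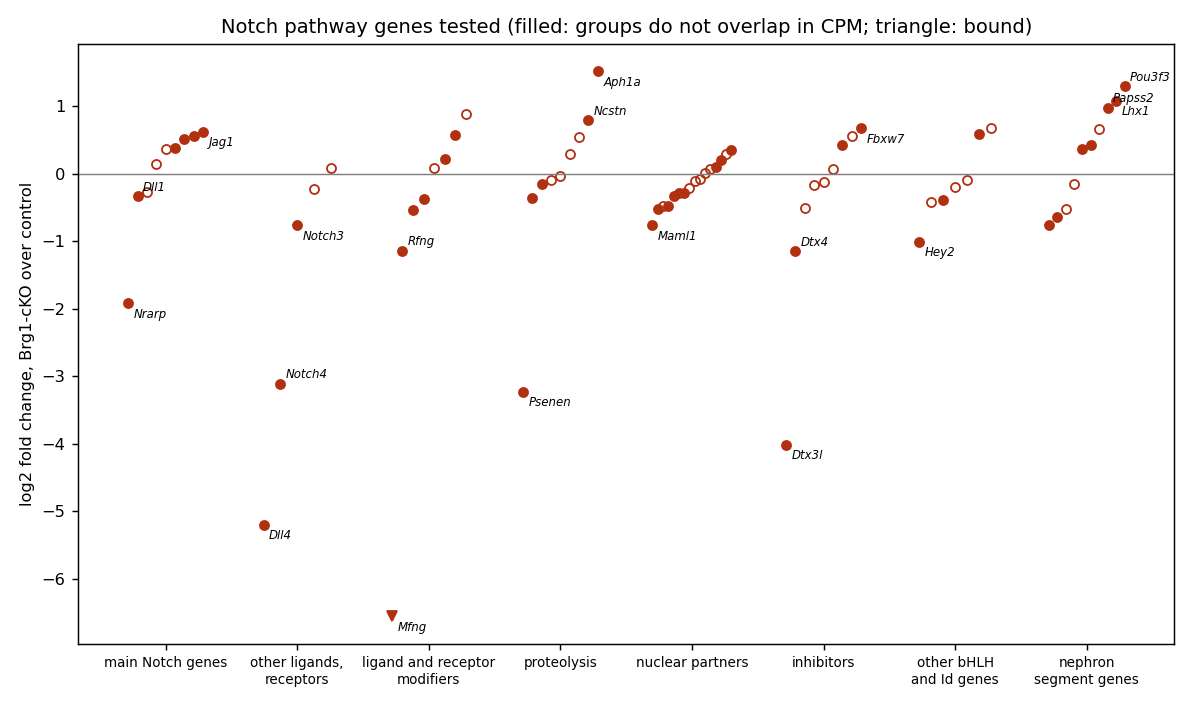
Log2 fold change of Brg1-cKO over control for the 9 main Notch genes and the 64 other pathway genes that were tested, by the role each was listed under. Filled points are genes whose groups did not overlap in CPM, and the triangle for Mfng is a bound against 3 counts over the group. Mfng, Dll4, Dtx3l, Psenen and Notch4 stand lowest, with Notch4 at -3.11.

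Summed markers of several cell types also differed between the groups. The 13 podocyte markers summed to 1398 and 1416 CPM in the controls and to 4136 and 3806 CPM in Brg1-cKO, and 11 of 13 lay above both controls, as did 17.5% of all genes. The 10 early nephron markers, where Jag1 is known to be expressed, summed to 1311 and 1301 CPM in the controls and to 2429 and 2233 CPM in Brg1-cKO, with 7 of 10 above both controls. The 10 progenitor markers summed to 1267 to 1287 CPM in control and to 1369 to 1387 CPM in Brg1-cKO. Of these 10, 3 lay above both controls and 2 below, and their median log2 fold change was 0.08. Beside the higher Jag1, Notch2 and Heyl values, the part of podocyte and early nephron RNA was not tested.

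The 12 endothelial markers summed to 729 and 729.5 CPM in the controls and to 419 and 260.5 CPM in Brg1-cKO, with 9 of 12 below both controls, as were 34.5% of all genes. None of them was at 0 in both Brg1-cKO libraries, though Erg was at 0 in replicate 1 and Sox18 in replicate 2. Cdh5, the endothelial cadherin, was at 163 and 153 CPM in the controls and at 74.1 and 32.1 CPM in Brg1-cKO. The order of the libraries was the same for Notch4, with replicate 2 the lower. The 12 stromal and mural markers summed to 3309 and 3269 CPM in the controls and to 1853 and 1719 CPM in Brg1-cKO, with 9 of 12 below both controls and Ren1 at 0. The 10 immune markers summed to 140.6 and 140.1 CPM in the controls and to 65.6 and 53.8 CPM in Brg1-cKO, with 8 of 10 below both controls and Itgam and C1qa at 0. The 11 ureteric bud markers summed to 238 and 248.5 CPM in the controls and to 180.1 and 91.6 CPM in Brg1-cKO, with 7 of 11 below both controls and Wnt9b, Wnt7b and Calb1 at 0. Hoxb7 made up most of the sum in Brg1-cKO replicate 1, at 98.2 CPM there and 27.0 in replicate 2 compared with 23.5 and 29.4 CPM. The part of these cells in the Notch3, Notch4, Dll4 and Mfng values was not tested. The 10 tubule markers summed to 234 and 242 CPM in the controls and to 226.6 and 337 CPM in Brg1-cKO, and Brg1-cKO replicate 2 was the higher for this sum as for Hes1. Of the 8 tested, 2 lay above both controls and 3 below, beside 17.5% and 34.5% of all genes. Slc12a1, the loop of Henle cotransporter, was at 42.2 and 86.9 CPM in Brg1-cKO compared with 4.25 and 4.82 CPM, and Cdh16, the kidney cadherin, at 17.8 and 29.1 CPM compared with 53.9 and 54.3 CPM.

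**Figure D4:**
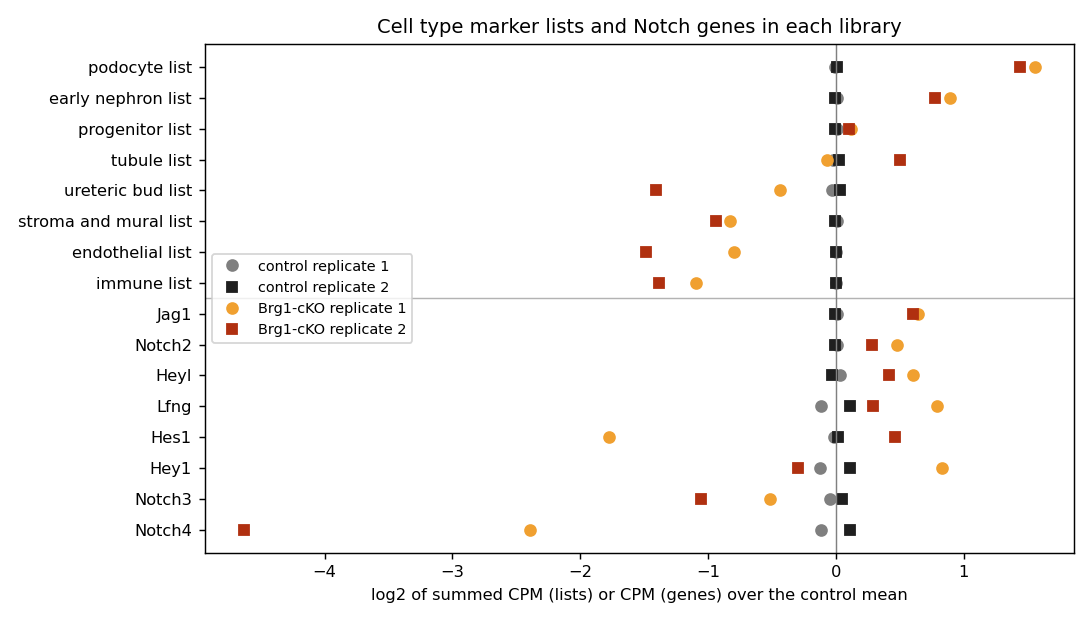
Log2 of the summed CPM of 8 cell type marker lists, and of the CPM of 8 Notch genes, over the control mean in each library. The podocyte and early nephron sums lie above control, as do Jag1, Notch2, Heyl and Lfng. The progenitor sum lies slightly above control, with 3 of 10 markers above both controls and 2 below. The endothelial, stromal and mural, immune and ureteric bud sums lie below control, as do Notch3 and Notch4.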

How the data were processed

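RNA was made from 3000 sorted cells per library, and stranded libraries were read as single ends of 75 bases, per the labels' protocols. The deposited values are whole-number counts of reads per gene, 1 file per library. The build mm10, TopHat and DESeq2 are named without versions, per the submitters' processing notes. Which program counted the reads, with what annotation and strand setting, is not given in the sources used here. Reads assigned to no gene, listed at the end of each file (31.8% to 72.1% of all reads), entered neither library sizes nor tests.

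Groups came from the sample titles. For the comparison, edgeR 4.0.16 (R 4.3.3) was run on all 4 libraries with group as the only term, TMM scaling, the default filter (minimum count 10), robust dispersions and Benjamini-Hochberg adjustment over all 18172 genes left. CPM uses TMM-scaled sizes, and standard errors are the log2 fold change over the root of F. A count of 0 allows 3 counts, or 0.0778 to 0.280 CPM per library, and such floors cover counting error only. Exon lengths and positions came from GENCODE M21. The 9.68 (controls) and 127 (Brg1-cKO) chi-square per gene showed no library to be a copy. Functions were tested on counts simulated with the same dispersion in both groups. That setting differs from these data, where the biological coefficient of variation was 0.174 in control and 1.15 in Brg1-cKO. Alternatives used DESeq2 1.42.0 and limma 3.58.1, other scalings and filters, thinned counts, a replicate block and each library left out.

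The members and lists were chosen with earlier results of these data known. The rule for named genes takes all members, 7 fixed pathway genes, and up to 12 others at 10 CPM or more in either group, with groups that do not overlap and a log2 fold change of at least 0.58. Psenen, Cdh5, Hoxb7, Slc12a1, Cdh16 and the sex-linked genes were named in addition. Among the genes the rule takes, Pou3f3, Lhx1 and Papss2 are given last. Lhx1 and Hnf4a each stand in 2 lists. Protein sequences were not used here.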

Additional observations from a re-analysis of the deposited data

How the results depend on the processing

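Jag1, Notch2, Heyl and Lfng kept a positive log2 fold change and Dll1 and Nrarp a negative one under all alternatives that gave a value, 16 for each but Nrarp (15, since it did not pass the filter of 10 CPM in 2 libraries). The members called numbered 3 with DESeq2 (Jag1, Notch2 and Heyl, adjusted p = 1.28e-07, 0.0258 and 0.0338), 1 with the likelihood ratio test (Jag1) and 0 to 9 with a library left out. Leaving out a Brg1-cKO library leaves a lone one, and then 55.5% or 60.6% of all genes are called. Without Brg1-cKO replicate 1, Notch1 was at -0.073, Hes1 at 0.43 and Hey1 at -0.33, each the reverse of its value over all 4 libraries, and without replicate 2 they were at 0.29, -1.80 and 0.81. Jag2 reversed without replicate 1 (-3.79, against 1.02 without replicate 2), with limma-voom (-1.04, or -1.06 with a variance per group) and with the block (-1.30). Over all genes the calls numbered 2021 (DESeq2), 2471 (likelihood ratio test), 327 (limma-voom), 134 with a variance per group, and 16 to 13262 with a library left out. Of the other pathway genes 6 were called by DESeq2, 5 by the likelihood ratio test, 1 by limma-voom and 0 to 49 with a library left out. The causes were not tested. Counts of members above both controls, chosen after seeing the data, were 4 to 6 with a library left out, and below them 2 to 4, while the shares of all genes rose to as much as 39.3% and 57.4%. With RLE scaling and with library totals they were 4 and 2.

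The replicate numbers are not stated to pair libraries, and the correlation of their differences between groups was -0.02 across 18172 genes. With the replicate block 156 genes were called, among them 0 of the members and 0 of the other pathway genes. Notch4 was at -4.65 without Brg1-cKO replicate 1 and -2.41 without replicate 2. Dll4 was at -4.28 without replicate 2, and no fold is given without replicate 1, since replicate 2 had 0 counts. Dtx4 was at -2.22 and Papss2 at 0.25 without replicate 1, and Lhx1 at 0.47 without replicate 2. Nrarp had 35 and 10 counts in Brg1-cKO and Hes5 had 0, so their values are imprecise.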

Other observations

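Genes linked to the segments of the nephron, in whose patterning Notch takes part in mouse, were listed with the pathway. Of 10 tested, 5 lay above both controls and 2 below, beside 17.5% and 34.5% of all genes. Pou3f3, a transcription factor of the distal and intermediate segments, was at 52.5 and 60.9 CPM in the controls and at 137.5 and 141.6 CPM in Brg1-cKO, a log2 fold change of 1.30 (SE 0.19, adjusted p = 0.166 by edgeR). Lhx1, which the renal vesicle needs, was at 134.9 and 136.8 CPM in the controls and at 190.4 and 384.7 CPM in Brg1-cKO, a log2 fold change of 1.08 (SE 0.38, adjusted p = 0.269 by edgeR). Papss2 was at 67.7 and 29.99 CPM in Brg1-cKO compared with 25.1 and 24.5 CPM in control (adjusted p = 0.436 by edgeR).

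Hnf4a, the proximal tubule regulator, lay on both sides of the controls, at 5.73 and 42.5 CPM in Brg1-cKO compared with 25.2 and 28.0 CPM, with replicate 1 the lower as for Hes1. Osr2 was at 96.0 and 226 CPM in Brg1-cKO compared with 101 and 101.3 CPM, again with replicate 2 the higher. Other genes of the list had replicate 1 the higher, as Sox9 at 58.2 and 34.0 CPM and Papss2 at 67.7 and 29.99 CPM in Brg1-cKO. Hnf4a and Osr2 were chosen after their values were seen.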
